A study of Mus musculus with 4 samples.

Results

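Keratin genes were read in polyadenylated RNA of mouse endometrium, which lines the uterine cavity, as every row of the gene tables whose symbol is Krt followed by a number and at most 1 lower-case letter. This gave 42 of 28545 rows, 19 for type I and 23 for type II keratins. The study sequenced 4 libraries: 2 labelled as Cre+/- and as a conditional knockout (called Cre here) and 2 labelled as SMAD7 fl/fl and as blank (called floxed here). The design text gives the stage of all mice as proestrus, the phase just before oestrus. It names uterine tissue and WT where the sample labels give endometrium and floxed mice. Per the labels' protocols, the loxP sites were placed by injecting guide RNA, Cas9 mRNA and a donor vector into fertilised eggs. No source used here gives the Cre line, the deleted exons, the strain or the ages. Whether each library is a separate animal is not stated in the labels, so the p-values reflect library-to-library spread that may be technical.

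Keratins are the intermediate filament proteins of epithelial cells. Filaments are built from acidic type I and basic type II keratins, which pair before they assemble, and are anchored at desmosomes between cells and at hemidesmosomes on the basement membrane. Simple epithelia, such as the luminal and glandular epithelium of the uterus, are known for the type II keratins Krt8 and Krt7 and the type I keratins Krt18 and Krt19. Stratified epithelia, such as epidermis and vagina, use Krt5 and Krt14 in their basal layer and other keratins, among them Krt1, Krt10, Krt4 and Krt13, in the layers above, and a further set of hard keratins builds the hair shaft.

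Total counts were 17444368 to 19830568 for the pair labelled Cre, against 18193504 to 22950532 for the pair labelled floxed. Smad7 did not show the loss that the labels name. It stood at 49.9 and 33.9 FPKM (counts scaled to gene length and library total) in the libraries labelled Cre, against 7.79 and 7.81 in those labelled floxed. Its log2 fold change was 2.42 ± 0.28 (SE, adjusted p = 0.0982 in edgeR's quasi-likelihood test). Every direction below therefore compares libraries by label, and Smad7 loss was not seen in the counts. These counts cover the whole gene and the deleted exons are not given, so they cannot settle whether the labels hold. The 2 libraries labelled floxed stood apart from each other. Their Spearman correlation over 13513 genes was 0.908, against 0.985 for the pair labelled Cre and 0.912 to 0.920 between groups. Results that rest on 1 library are given with and without it.

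The keratin genes lie in 2 clusters of the genome build GRCm38, 18 on chromosome 11 and 24 on chromosome 15. All 18 on chromosome 11 encode type I keratins, and those on chromosome 15 encode the 23 type II keratins and 1 type I keratin, Krt18, next to its partner Krt8. The stretches of 300 bases around annotated starts (250 before and 50 after, from RefSeq on GRCm38.p6, which held 28 such stretches for 27 of the 42 genes) are shown for 5 genes. Krt8 and Krt18 are shown as the abundant pair, Krt7 as the abundant keratin that separated the groups, Krt5 as the keratin that stood out in 1 library, and Krt84 as a hair keratin that was higher in both libraries labelled Cre. Capitals mark the TATA box TATAAA, the related run ATAAAAG and the GC box GGGCGG, searched on both strands. The first 2 motifs share the letters ATAAA and can overlap.
Krt8, chr15:102004293-102004592, minus strand: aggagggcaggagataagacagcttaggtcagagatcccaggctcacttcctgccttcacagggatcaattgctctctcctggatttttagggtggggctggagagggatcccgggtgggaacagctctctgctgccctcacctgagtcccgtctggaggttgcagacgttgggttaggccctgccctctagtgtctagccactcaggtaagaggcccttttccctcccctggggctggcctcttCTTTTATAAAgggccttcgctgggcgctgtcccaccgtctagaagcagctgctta
Krt18, chr15:102027966-102028265, plus strand: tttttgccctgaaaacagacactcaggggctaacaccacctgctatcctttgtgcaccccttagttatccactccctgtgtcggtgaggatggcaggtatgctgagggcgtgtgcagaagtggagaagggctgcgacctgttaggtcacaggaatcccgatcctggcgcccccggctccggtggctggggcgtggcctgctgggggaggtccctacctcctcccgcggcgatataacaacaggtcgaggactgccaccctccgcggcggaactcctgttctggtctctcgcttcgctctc
Krt7, chr15:101412153-101412452, plus strand: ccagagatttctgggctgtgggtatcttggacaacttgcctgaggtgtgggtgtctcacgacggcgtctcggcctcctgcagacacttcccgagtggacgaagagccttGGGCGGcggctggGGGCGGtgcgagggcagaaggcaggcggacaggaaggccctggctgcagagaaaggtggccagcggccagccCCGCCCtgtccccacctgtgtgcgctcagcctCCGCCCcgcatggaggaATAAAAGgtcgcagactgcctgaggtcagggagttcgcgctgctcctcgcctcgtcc
Krt5, chr15:101712856-101713155, minus strand: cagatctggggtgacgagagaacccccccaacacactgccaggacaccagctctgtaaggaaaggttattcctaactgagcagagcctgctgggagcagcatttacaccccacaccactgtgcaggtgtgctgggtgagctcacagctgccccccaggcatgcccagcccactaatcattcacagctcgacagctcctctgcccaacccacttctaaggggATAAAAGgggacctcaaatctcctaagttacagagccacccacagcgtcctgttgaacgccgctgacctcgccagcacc
Krt84, chr15:101532771-101533070, minus strand: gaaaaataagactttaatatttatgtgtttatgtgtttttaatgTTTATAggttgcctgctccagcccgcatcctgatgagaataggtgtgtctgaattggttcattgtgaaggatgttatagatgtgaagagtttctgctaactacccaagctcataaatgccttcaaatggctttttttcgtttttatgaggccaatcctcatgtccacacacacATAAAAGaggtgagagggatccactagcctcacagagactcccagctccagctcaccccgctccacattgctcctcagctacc
ATAAAAG began 29 bases before the annotated start of Krt5 (at -29) and at -33 in Krt84. In Krt7 it began at -7, and 4 GC boxes lay within the stretch. In Krt8 its leftmost base lay at -5 on the opposite strand. TATAAA lay there at -3 on that strand and at -1 on the strand shown, across the annotated start. Distances are from the RefSeq starts, and other annotations place the starts of Krt7 and Krt8 elsewhere. Krt18 held none of the 3 motifs, which says only that these letters are not in this window. ATAAAAG was chosen as a motif after the sequences were seen, and occurred in 11 of the 28 keratin stretches, against 5.42% of 32851 stretches of the same length. TATAAA occurred in 11 of the 28 against 13.6%, and GGGCGG in 2 of the 28 against 35.7%. These are counts of letters and not of bound sites.

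The keratin RNA of this endometrium was mostly that of a simple epithelium in all 4 libraries. Krt7, Krt8, Krt18 and Krt19 together made up 92.7% and 95.6% of the summed keratin FPKM in the libraries labelled Cre, against 96.6% and 97.6% in those labelled floxed. The summed level of the 6 keratins of simple epithelium was 731 and 566 FPKM in the libraries labelled Cre, against 456 and 860 FPKM in those labelled floxed. The lowest and the highest of these sums were both labelled floxed. The exact two-sided permutation test of the log2 sums gave p = 1, where the smallest that 2 against 2 libraries allow is 0.333. The ratio of the group means was 0.985, and the log2 difference of 0.038 turned to -0.42 without floxed replicate 1 and -0.15 without Cre replicate 1. In bulk tissue a smaller share of epithelial cells and less keratin RNA per cell cannot be told apart.

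**Figure D1:**
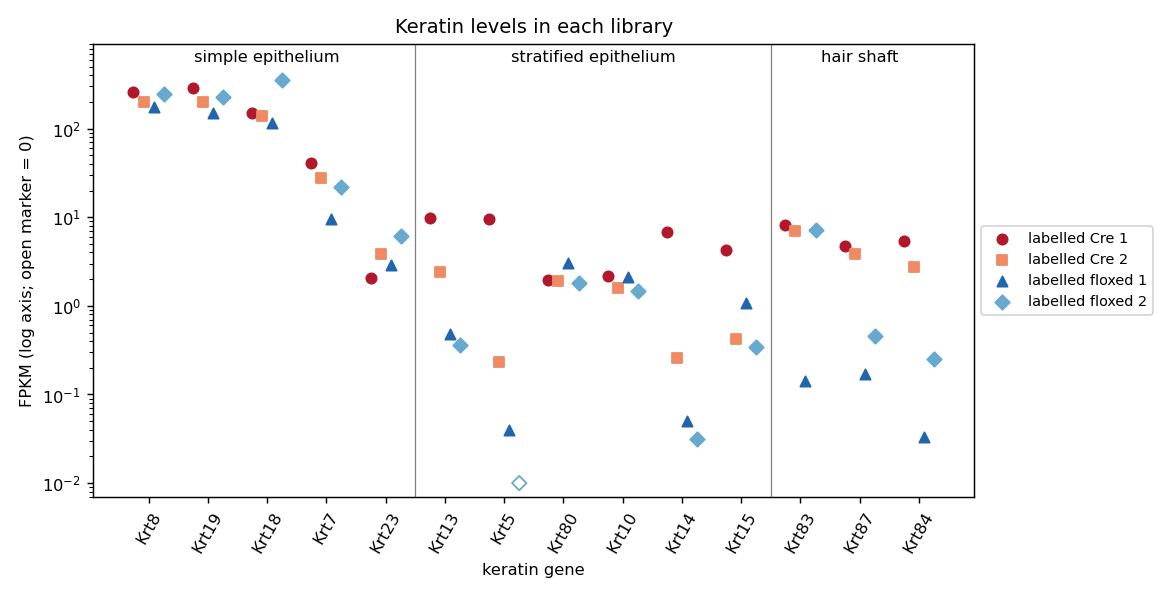
FPKM (log axis) of the 14 tested keratins in the 4 libraries, ordered by class and by mean level within a class. Krt8, Krt18 and Krt19 lie above 100 FPKM in every library, while Krt5 and Krt14 reach 9.59 and 6.77 FPKM in Cre 1 and stay below 0.3 FPKM in the other 3.

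Of the 42 keratins, 14 had a mean of at least 1 FPKM and were tested, 28 were below it, and 2 of these had no count in any library. No keratin passed an adjusted p under 0.05 in edgeR, where 0% of all 13513 genes passed. At an unadjusted p under 0.05 there were 5 keratins higher in the libraries labelled Cre, against 7.30% of all genes, and 0 lower, against 6.58%. The 5 were Krt13, Krt5, Krt14, Krt84 and Krt87, and DESeq2 called the same 5 higher at an adjusted p under 0.05, against 3.24% of all genes. All 5 had a mean below 0.5 FPKM in the libraries labelled floxed and so passed the filter only through the libraries labelled Cre, so that these counts are a description and no support. FPKM values did not overlap between the groups for 6 tested keratins. All 6 were higher in the libraries labelled Cre, against 23.8% of all genes, and 0 were lower, against 24.1%. The 6 were Krt7 and the same 5, so the limit set by the filter holds for this count too. Among the 10 untested keratins with at least 20 counts, Krt20, Krt25 and Krt79 were lower without overlap, and Krt1 and Krt81 were higher. The shares above are of tested genes, and none was taken over untested genes, so this is a description only. Some of these rest on few counts, such as Krt81 with 8 and 8 in the libraries labelled Cre, against 0 and 6.

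Among the type II keratins of simple epithelium, Krt8 stood at 257 and 198 FPKM in the libraries labelled Cre, against 177 and 244 FPKM in those labelled floxed. The groups overlapped, with a log2 fold change of 0.10 ± 0.33 (SE, edgeR adjusted p = 0.907). The direction depended on single libraries, at -0.10 without Cre replicate 1 and -0.15 without floxed replicate 1. Of all 100-base stretches of Krt8 transcripts, 16.9% also occur in the pseudogene Krt8-ps, so reads there may have been lost or shared.

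Krt7, which marks ducts, glands and mesothelium beside uterine epithelium, was the only tested keratin of simple epithelium whose groups did not overlap. It stood at 40.9 and 27.4 FPKM in the libraries labelled Cre, against 9.53 and 21.8 FPKM in those labelled floxed. The Cre mean was 34.2 ± 9.51 FPKM and the floxed mean 15.7 ± 8.67 FPKM (SD, n = 2 each). The log2 fold change of 1.10 ± 0.49 (SE) did not pass (adjusted p = 0.398 in edgeR and 0.223 in DESeq2). It was 0.60 (adjusted p = 0.0583) without floxed replicate 1 and 1.88 (5.78e-06) without floxed replicate 2, where the lone floxed library was assumed to vary like the Cre pair and 17.5% and 10.4% of all genes were called higher. It also passed with no filter on low genes (1.05, edgeR adjusted p = 0.0217), where 1928 of 27379 genes were called. In that fit the SE was 0.32 for Krt7, against 0.49 with the filter, and 0.77 for Krt5, against 2.21. For such genes its p-values understate the spread between libraries. Relative to Krt8 in the same library, Krt7 was 0.159 and 0.138 in those labelled Cre, against 0.0539 and 0.0893 in those labelled floxed, so this ratio did not overlap either.

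The type I keratins of simple epithelium did not share a direction. Krt19 (chr11:100140810-100148665, minus strand), the shortest keratin, which lacks a tail domain, stood at 283 and 198 FPKM in the libraries labelled Cre, against 151 and 230 FPKM in those labelled floxed (log2 fold change 0.32 ± 0.37, edgeR adjusted p = 0.715). Krt19 was 0.71 without floxed replicate 2 and 0.01 without floxed replicate 1. Krt18, the usual partner of Krt8, stood at 148 and 139 FPKM in the libraries labelled Cre, against 116 and 358 FPKM in those labelled floxed, so that 1 floxed library was far above the other 3. Its log2 fold change of -0.75 ± 0.57 (adjusted p = 0.593) became -1.37 (2.19e-05) without floxed replicate 1, where 13.9% of all genes were called lower, and 0.35 (0.273) without floxed replicate 2.

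The balance of the pair showed the same library. Krt18 per Krt8 was 0.577 and 0.701 by FPKM in the libraries labelled Cre, against 0.655 and 1.47 in those labelled floxed. Summed over all members, type I per type II FPKM was 1.39 and 1.42 in the libraries labelled Cre, against 1.46 and 2.16 in those labelled floxed. Krt18 made up 18.8% and 23.6% of the keratin total in the libraries labelled Cre, against 24.7% and 40.9% in those labelled floxed. The log2 difference of the type I to type II ratio was -0.33, and -0.050 without floxed replicate 2.

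**Figure D2:**
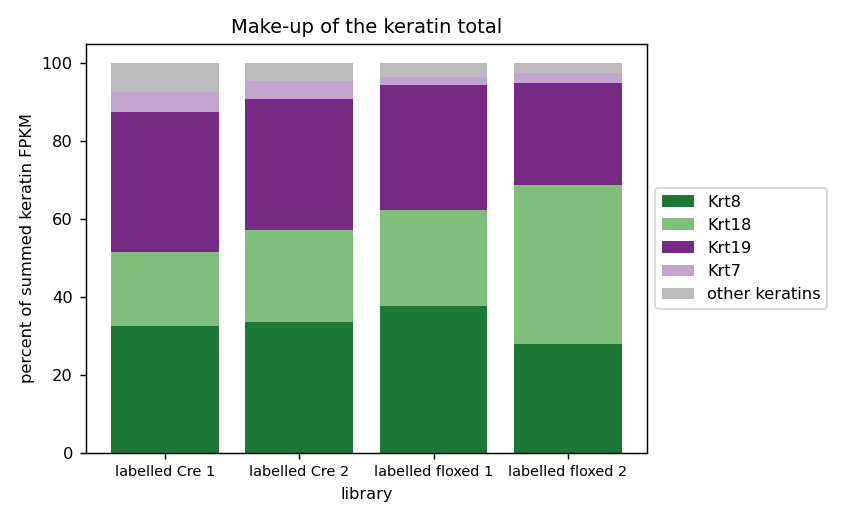
Percent of the summed keratin FPKM held by Krt8, Krt18, Krt19, Krt7 and the other keratins in each library. Krt18 takes 40.9% in floxed 2, against 18.8% to 24.7% in the other 3 libraries, and Krt7 takes 5.20% and 4.66% in the Cre pair, against 2.03% and 2.49% in the floxed pair.

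Of the low members of the class, Krt23, a type I keratin of glandular and colonic epithelium, stood at 2.06 and 3.81 FPKM in the libraries labelled Cre, against 2.92 and 6.08 FPKM in those labelled floxed (log2 fold change -0.63 ± 0.57, edgeR adjusted p = 0.645). Without floxed replicate 2 it was 0.04, and without floxed replicate 1 it was -1.10. Krt20, a keratin of intestinal epithelium and urothelial umbrella cells, had 1 and 2 counts in the libraries labelled Cre, against 7 and 31 counts in those labelled floxed, and was below the filter. With no filter, where 1928 of 27379 genes were called, Krt20 had an adjusted p of 0.0154 in edgeR (log2 fold change -3.60). That fit understated the library spread of Krt5, and most Krt20 counts lay in floxed replicate 2. The 5 tested members had a median log2 fold change of 0.10, beside -0.033 for all genes tested. With no filter the sign turned, and the median over all 6 was -0.32, beside 0.014 for all genes.

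General epithelial markers did not show the direction of Krt7. The 12 markers fixed for uterine epithelium, mainly adhesion and junction genes and surface proteases, summed to 602 to 641 FPKM in the libraries labelled Cre, against 649 to 918 FPKM in those labelled floxed. Of these, 6 of 12 were lower without overlap (24.1% of all genes) and 1, Cdh1 (E-cadherin), was higher (23.8% of all genes), at 77.7 and 80.05 against 76.4 and 54.7 FPKM. Epcam, an epithelial adhesion molecule, stood at 110 and 112 against 120 and 165 FPKM. The FPKM of all genes summed to 286056 and 285908 in the libraries labelled Cre, against 296322 and 349664 in those labelled floxed. Levels in floxed replicate 2 thus read high on this scale, and those in floxed replicate 1 slightly so. The marker sums were not rescaled. The values of 641 and 649 FPKM that split them were nearly level, so the split, and the count of markers without overlap, may depend on this scale. The simple keratin sum per epithelial marker sum was 1.14 and 0.940 in the libraries labelled Cre, against 0.703 and 0.937 in those labelled floxed, with an exact two-sided permutation p of 0.333, the smallest possible. The groups were split by 0.940 against 0.937, so 1 library of each group was nearly level.

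Mesothelium, the serosal lining of the uterus, also carries simple keratins, and its markers were higher in the pair labelled Cre, as Krt7 was. Of the 7 fixed mesothelial markers 6 were higher without overlap, against 23.8% of all genes, and their sum was 47.7 to 64.9 FPKM in the libraries labelled Cre, against 23.0 to 39.5 FPKM in those labelled floxed. Mesothelin (Msln) stood at 9.64 and 4.88 against 3.27 and 1.96 FPKM, and Upk3b at 22.6 and 13.4 against 6.88 and 5.84 FPKM. The marker that overlapped was Wt1, at 14.9 and 18.9 against 24.0 and 12.4 FPKM. Within the floxed pair, replicate 1 had the higher mesothelial sum (39.5 against 23.0 FPKM) and the lower Krt7 (9.53 against 21.8 FPKM). Most of both sums was Wt1, at 24.0 and 12.4 FPKM. The part of mesothelium in the keratin values was not tested. The 5 markers of ciliated and secretory oviduct epithelium were all higher without overlap too, against the same 23.8%, with sums of 69.3 to 285 FPKM in the libraries labelled Cre, against 3.15 to 26.9 FPKM in those labelled floxed. They were highest in Cre replicate 2, while Krt7, Krt8 and Krt19 were higher in Cre replicate 1, and their part was not tested either.

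Keratins of stratified epithelium were low, and most of their RNA came from 1 library. The 19 members summed to 35.9 and 7.59 FPKM in the libraries labelled Cre, against 10.6 and 5.11 FPKM in those labelled floxed. Cre replicate 1 was above the other 3, and Cre replicate 2 lay between the floxed libraries. The exact two-sided permutation p was 0.667, and the log2 difference of 1.16 was 0.043 without Cre replicate 1.

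**Figure D3:**
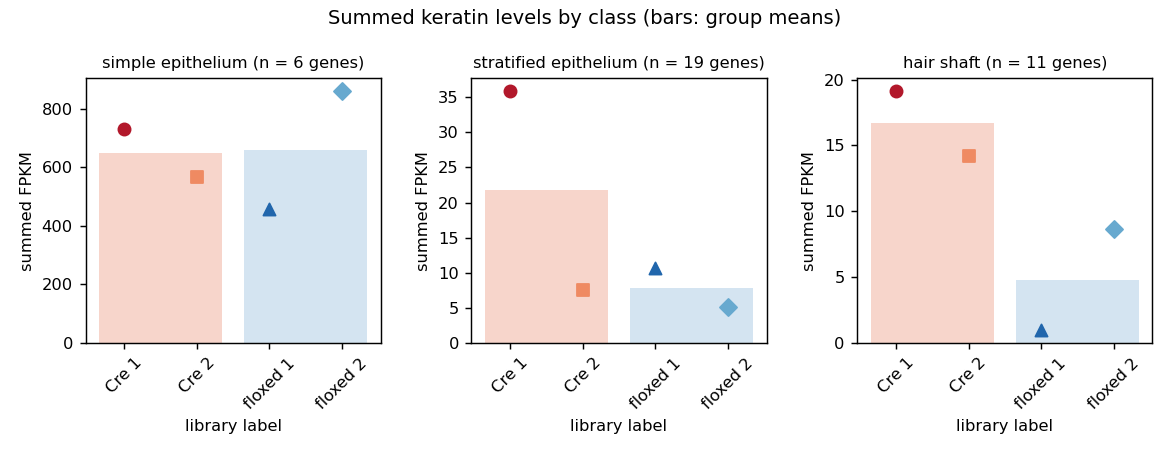
Summed FPKM of the keratins of simple epithelium, stratified epithelium and hair shaft in each library (points), with group means as bars. The stratified sum is set apart by Cre 1 at 35.9 FPKM, the hair shaft sum is above the floxed libraries in both Cre libraries at 19.1 and 14.2 FPKM, and the simple sum overlaps.

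The basal pair of keratins lay almost wholly in 1 library. Krt5, the type II keratin of basal cells, had 418 and 9 counts in the libraries labelled Cre (9.59 and 0.235 FPKM), against 2 and 0 counts in those labelled floxed (0.0397 and 0 FPKM). Its type I partner Krt14 (chr11:100203162-100207548, minus strand) had 236 and 8 counts in the libraries labelled Cre (6.77 and 0.261 FPKM), against 2 and 1 counts in those labelled floxed (0.0496 and 0.0313 FPKM). Nearly all of both thus lay in Cre replicate 1, which held 40.9 times the Krt5 of Cre replicate 2 per total count (95% exact binomial interval 21.3 to 89.98) and 26.0 times its Krt14 (13.0 to 60.8). Intervals here cover counting error only. Of their 100-base stretches, 2.38% of Krt5 and 2.78% of Krt14 also occur in other keratin genes or in a predicted gene, and Gm44323 shares 5.87% of the exon bases of Krt5.

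Between the groups, the pooled count ratio of Krt5 was 236 (64.8 to 1952) and that of Krt14 was 89.8 (30.4 to 438). Without Cre replicate 1 these ratios were 10.6 (2.2 to 100.9) for Krt5 and 6.29 (1.51 to 36.8) for Krt14. The fitted log2 fold changes of 7.65 ± 2.21 and 6.30 ± 1.82 did not pass (edgeR adjusted p = 0.254 each), and DESeq2 gave adjusted p-values of 0.000208 and 0.00118. They became 3.28 and 2.56 without Cre replicate 1, both at an adjusted p of 0.998.

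Krt13 (chr11:100117327-100121566, minus strand), the type I keratin of upper layers in moist stratified epithelia such as vagina and oesophagus, had 353 and 77 counts in the libraries labelled Cre (9.78 and 2.42 FPKM), against 20 and 12 counts in those labelled floxed (0.479 and 0.362 FPKM). Both libraries labelled Cre were above both labelled floxed, and Cre replicate 1 was again the highest. The log2 fold change was 3.85 ± 0.81 (edgeR adjusted p = 0.166, DESeq2 0.000102) and 2.51 (edgeR 0.894) without Cre replicate 1. The pooled count ratio was 14.8 (10.3 to 22.0), and 5.68 (3.71 to 8.86) without that library. Its usual type II partner Krt4 did not go along, with 6 and 4 counts in the libraries labelled Cre, against 25 and 0 counts in those labelled floxed.

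Krt15, a basal keratin without a fixed partner, stood at 4.31 and 0.422 FPKM in the libraries labelled Cre, against 1.08 and 0.342 FPKM in those labelled floxed. The groups overlapped, and the log2 fold change of 1.74 ± 1.15 (edgeR adjusted p = 0.545) was -0.75 without Cre replicate 1. Krt10, a keratin of upper epidermal layers, stood at 2.17 and 1.60 FPKM in the libraries labelled Cre, against 2.12 and 1.48 FPKM in those labelled floxed (0.07 ± 0.43, adjusted p = 0.955). Krt80, a type II keratin of many epithelia, stood at 1.96 and 1.91 FPKM in the libraries labelled Cre, against 3.03 and 1.81 FPKM in those labelled floxed (-0.32 ± 0.33, adjusted p = 0.694). Neither Krt10 nor Krt80 separated the groups. Other annotated genes share 6.91% of the exon bases of Krt10 and 4.11% of those of Krt80.

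The 3 basal markers that are no keratins differed among themselves. Trp63, the transcription factor that defines basal cells, stood at 0.216 and 0.246 FPKM in the libraries labelled Cre, against 0.254 and 0.347 FPKM in those labelled floxed. Its counts were 36 and 36 against 49 and 53, too few to rank the libraries. The desmoglein of basal layers, Dsg3, stood at 0.0795 and 0.140 against 0.131 and 0.0788 FPKM, on 11 and 17 against 21 and 10 counts. Col17a1, a collagen of hemidesmosomes, stood at 1.15 and 0.620 against 0.225 and 0.658 FPKM, and so was highest in Cre replicate 1, as Krt5 and Krt14 were, while the groups overlapped. The 6 basal markers as a list summed to 22.1 and 1.92 FPKM in the libraries labelled Cre, against 1.78 and 1.46 FPKM in those labelled floxed, but 3 of the 6 are keratins described here. Of the 5 cornifying markers in the files, involucrin (Ivl) had 0 counts in both libraries labelled Cre, against 48 and 3 in those labelled floxed. Filaggrin (Flg) had 0 in both against 3 and 0 counts, and Krtdap 0 and 1 against 1 and 0, too few to read. Loricrin (Lor) was lower, at 0.765 and 0.806 against 1.57 and 1.95 FPKM. Calml3, a calmodulin-like protein of epithelium, was higher, at 9.76 and 5.77 against 0.184 and 1.97 FPKM. The part of any other tissue in these values was not tested.

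Among stratified keratins below the filter, Krt17 and Krt90 had most of their counts in floxed replicate 1, and Krt79 had more counts in both libraries labelled floxed. Krt17, a keratin of stressed and appendage epithelium and the highest of the untested members at a mean of 0.896 FPKM, had 16 and 3 counts in the libraries labelled Cre, against 90 and 12 counts in those labelled floxed. Krt15, at 1.54 FPKM, was the lowest that was tested. Krt90 had 3 and 4 counts against 22 and 3, and Krt79, a keratin of sebaceous and hair follicle ducts, 5 and 3 against 27 and 18. Krt1, a keratin of upper epidermal layers, went the other way, with 22 and 16 counts in the libraries labelled Cre, against 3 and 5 counts in those labelled floxed. With no filter (1928 of 27379 genes called), Krt17 had an edgeR adjusted p of 0.0306 (log2 fold change -2.23), Krt79 of 0.102 and Krt1 of 0.153. The limit given for this fit under Krt7 holds here too. Over all 19 members the median log2 fold change with no filter was 0.012, against 2.79 for the 6 that passed the filter. Krt5, Krt13, Krt14 and Krt15 passed it only through the libraries labelled Cre. The floxed mean of Krt15 was 0.714 FPKM. The value of 2.79 is thus a description and no support.

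Keratins named for the hair shaft had a higher summed level in both libraries labelled Cre than in either labelled floxed. The 11 members summed to 19.1 and 14.2 FPKM in the libraries labelled Cre, against 0.936 and 8.62 FPKM in those labelled floxed, with an exact two-sided permutation p of 0.333, the smallest possible. Krt84, a type II hair keratin also known from tongue papillae, had 284 and 125 counts in the libraries labelled Cre (5.42 and 2.71 FPKM), against 2 and 12 counts in those labelled floxed (0.0330 and 0.250 FPKM). Krt87 (chr15:101431038-101438804, minus strand), also a type II hair keratin, had 212 and 154 counts in the libraries labelled Cre (4.69 and 3.88 FPKM), against 9 and 19 counts in those labelled floxed (0.172 and 0.458 FPKM). For both genes each library labelled Cre was above each labelled floxed.

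The log2 fold change of Krt84 was 4.86 ± 0.96 and that of Krt87 was 3.76 ± 0.62 (edgeR adjusted p = 0.155 and 0.115, DESeq2 6.98e-06 and 2.6e-06). Without Cre replicate 1 they were 4.25 and 3.60, and without Cre replicate 2 they were 5.26 and 3.88. Unlike in the basal pair, the size of the fold change thus did not rest on 1 library labelled Cre. They were 3.97 and 3.17 without floxed replicate 1 and 6.89 and 4.65 without floxed replicate 2. Both genes passed the filter only through the libraries labelled Cre, so these values are a description and no support. The pooled count ratio was 32.2 (18.999 to 59.5) for Krt84 and 14.4 (9.82 to 22.0) for Krt87.

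Krt83, another type II hair keratin, differed between the floxed libraries. It had 300 and 223 counts in the libraries labelled Cre (8.21 and 6.94 FPKM), against 6 and 241 counts in those labelled floxed (0.142 and 7.19 FPKM). Only floxed replicate 1 was low. The log2 fold change was 1.01 ± 1.40 (edgeR adjusted p = 0.766), 0.03 without floxed replicate 1 and 5.74 without floxed replicate 2. The neighbouring and similar Krt86 had 18 and 16 counts in the libraries labelled Cre, against 9 and 17 counts in those labelled floxed, and Krt81 had 8 and 8 against 0 and 6.

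Close copies limit this cluster. Of the 100-base stretches of their transcripts, 10.97% of Krt87, 5.17% of Krt83, 24.6% of Krt86 and 25% of Krt81 also occur in another of these genes or in a predicted gene, so reads could be split between them. Krt84 shared no such stretch with another gene. The 4 genes of the inner root sheath and companion layer, which surround the growing hair, were low: Krt25 had 0 and 1 counts in the libraries labelled Cre, against 56 and 6 counts in those labelled floxed. With no filter (1928 of 27379 genes called) its adjusted p in edgeR was 0.000112, from the fit that understated the library spread of Krt5. Floxed replicate 1 thus held most of Krt25, as it did of Krt17 and Krt90. The unclassified Krt222, a short keratin-like gene, had 8 and 11 against 13 and 5 counts. The 18 keratins with fewer than 20 counts over the 4 libraries had at most 11 counts in any one of them.

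**Figure D4:**
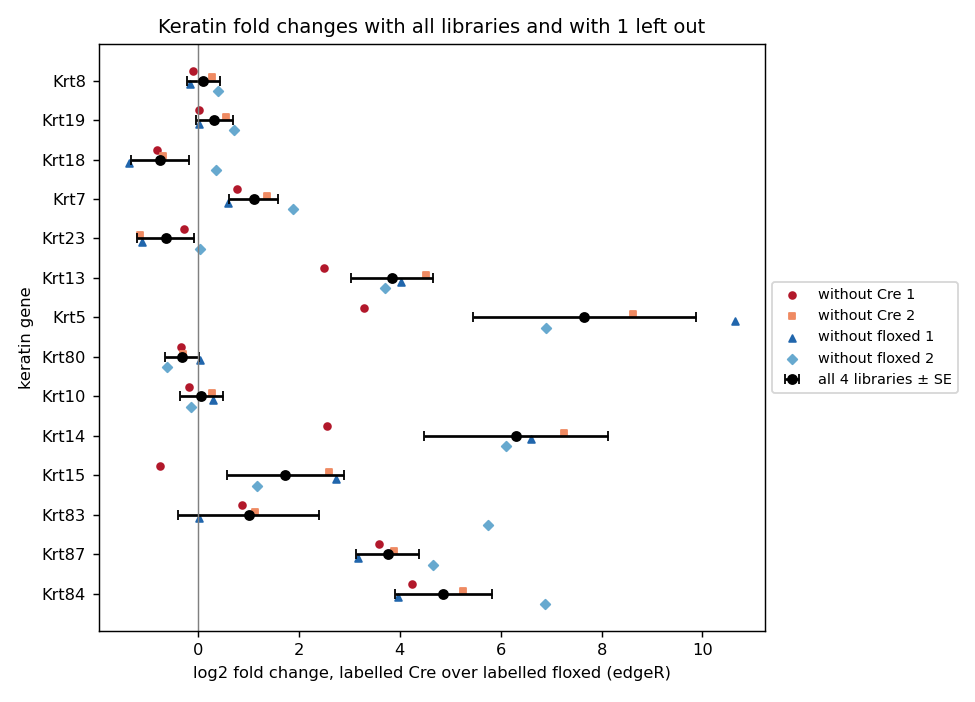
Log2 fold change (libraries labelled Cre over those labelled floxed, edgeR) of the 14 tested keratins with its SE, and the values with 1 library left out. Krt5 and Krt14 move to 3.28 and 2.56 without Cre 1, Krt83 moves to 5.74 without floxed 2, and Krt84 and Krt87 stay above 3 in all 4 cases.

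Desmosome genes, whose proteins anchor keratin filaments at cell contacts, were mostly higher in the libraries labelled Cre, though none passed. At an unadjusted p under 0.05, 5 of 9 tested members were higher, against 7.30% of all genes, and 0 lower, against 6.58%. FPKM was higher without overlap for 7 of the 9 (23.8% of all genes), and DESeq2 called 3 higher (3.24%). The median log2 fold change was 0.57, beside -0.033 for all genes. Dsc2, a desmosomal cadherin, stood at 17.4 and 15.9 FPKM in the libraries labelled Cre, against 3.11 and 4.16 FPKM in those labelled floxed (2.19 ± 0.26, edgeR adjusted p = 0.0982). Dsp, desmoplakin, which binds the filaments directly, stood at 23.6 and 23.2 against 11.6 and 9.64 FPKM (1.14 ± 0.22, 0.149). Evpl, envoplakin, stood at 7.64 and 4.97 against 2.54 and 2.23 FPKM (1.40 ± 0.29, 0.166).

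Genes of the hemidesmosome and of filament linkers were higher in the same way, with 3 of 5 tested members at an unadjusted p under 0.05 (7.30% of all genes), 0 passing in edgeR and 3 called by DESeq2 (3.24%). FPKM was higher without overlap for 4 of the 5, against 23.8% of all genes. Itgb4, the integrin chain of hemidesmosomes, stood at 16.8 and 13.8 FPKM in the libraries labelled Cre, against 5.24 and 6.51 FPKM in those labelled floxed (1.37 ± 0.25, edgeR adjusted p = 0.141). Dst, dystonin, stood at 16.3 and 17.1 against 7.31 and 3.54 FPKM (1.64 ± 0.40, 0.206), and Plec, plectin, at 29.8 and 21.4 against 12.2 and 6.23 FPKM (1.49 ± 0.39, 0.227). Dst and Plec are also expressed in muscle, and the 7 smooth muscle markers summed to 2591 to 2897 FPKM in the libraries labelled Cre, against 1557 to 1819 FPKM in those labelled floxed, a part that was not tested.

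At an unadjusted p under 0.05, 0 of 9 tested epithelial transcription and splicing factors were higher and 1 was lower, against 7.30% and 6.58% of all genes. FPKM was higher without overlap for 4 and lower for 2, against 23.8% and 24.1%. The 1 lower gene was Ovol1, a zinc finger factor, at 0.390 and 0.378 FPKM in the libraries labelled Cre, against 1.21 and 2.63 FPKM in those labelled floxed (-2.33 ± 0.57, edgeR adjusted p = 0.206, DESeq2 0.0150). Other genes share 22.0% of its exon bases. Grhl2, a regulator of epithelial junction genes, stood at 7.99 and 7.98 against 3.46 and 6.08 FPKM (0.73 ± 0.34, 0.416), and Esrp2, an epithelial splicing factor, at 8.23 and 7.79 against 2.63 and 6.98 FPKM (0.72 ± 0.50, 0.565). Of 5 tested cornified envelope genes 1, Calml3, was higher at an unadjusted p under 0.05, against 7.30% of all genes (2.83 ± 1.06, adjusted p = 0.337). Lor, loricrin, had -1.16 ± 0.46 (0.360) and Sfn, stratifin, 0.83 ± 0.38 (0.406).

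Among 7 tested intermediate filament genes outside the keratins 1, Synm, synemin of muscle filaments, was higher at an unadjusted p under 0.05 (7.30% of all genes), at 10.98 and 11.3 FPKM in the libraries labelled Cre, against 6.73 and 4.08 FPKM in those labelled floxed (1.05 ± 0.27, edgeR adjusted p = 0.220). Des, desmin of muscle, stood at 254 and 181 against 140 and 132 FPKM (0.67 ± 0.31, 0.416). Vim, vimentin of stroma, stood at 146 and 157 against 161 and 281 FPKM (-0.56 ± 0.40, 0.569). Lmnb1, a nuclear lamin, stood at 18.4 and 15.6 against 46.0 and 16.1 FPKM (-0.85 ± 0.48, 0.487). The highest Vim and the highest Krt18 were thus in the same library, floxed replicate 2.

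**Figure D5:**
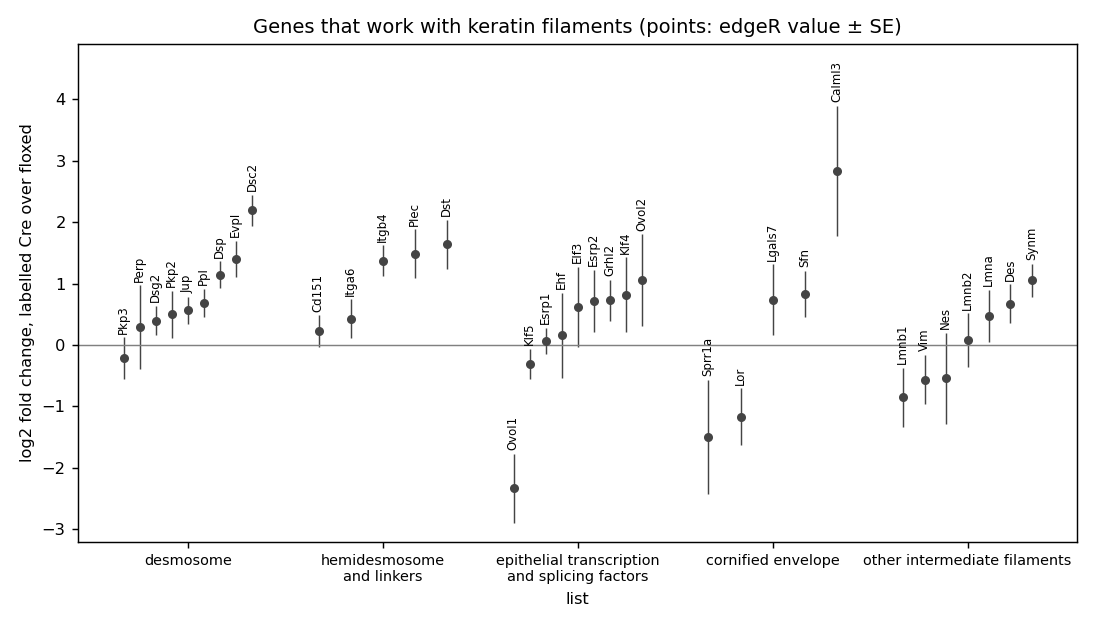
Log2 fold change (libraries labelled Cre over those labelled floxed, edgeR) ± SE of the tested genes in 5 lists of genes that work with keratin filaments. Desmosome and hemidesmosome genes lie mostly above 0, led by Dsc2 at 2.19, and the other 3 lists lie on both sides of 0.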

How the data were processed

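The authors deposited 1 table for each library, which per the file headers holds read counts and FPKM for every gene. HISAT2, HTSeq (version 0.13.5) and the build GRCm38 are named in the submitters' processing notes, and no source used here gives the strand setting. The deposited FPKM values equal count divided by gene length and total count (lengths agreed within 1e-06 for 23463 of 23463 genes).

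Counts of 13513 genes, those averaging 1 FPKM or more, were fitted with edgeR 4.0.16 (R 4.3.3, TMM scaling, quasi-likelihood tests, group as the only term, 2 residual degrees of freedom), with two-sided p-values adjusted by Benjamini-Hochberg over all genes tested. The procedure was run on simulated counts with chosen spreads and planted fold changes, which checks the code and not its power in these libraries. Each SE was obtained from the fold change and the square root of its F statistic. DESeq2 1.42.0, limma 3.58.1, other scalings and filters and each library left out were alternatives. Sums of FPKM were compared by exact permutation over libraries. The floor of 3 counts is 0.131 to 0.172 CPM. Coordinates, exon overlaps and shared 100-base stretches come from GENCODE mouse release M21 on GRCm38.

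The members and lists were chosen with earlier results of these data known. Keratins are named in full at a mean of at least 1 FPKM, and below it at 20 or more counts. Of each list of partner genes the 3 with the smallest p are named, with Epcam, Cdh1, Trp63, Vim, Des and Smad7. Msln, Upk3b, Wt1, Dsg3, Col17a1, Ivl, Flg and Krtdap were named after their values were seen. Of the keratins in the class lists, those without a row were not analysed here.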

Additional observations from a re-analysis of the deposited data

How the results depend on the processing

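The count of keratins that passed an adjusted p under 0.05 was 0 with all 4 libraries in edgeR, and 0 with median-of-ratios or total count scaling, a filter of 5 FPKM, limma and the replicate block. It was 9 with no filter on low genes (1928 of 27379 genes called) and 5 with DESeq2 (843 of 13513). It was 0 to 8 with 1 library left out, with 8 without floxed replicate 1 (4249 of 13513 genes) and 8 without floxed replicate 2 (2942 of 13513), when the spread came from the pair labelled Cre alone. The median of tested stratified keratins, 2.79, was 0.012 with no filter, 1.15 with limma on log2(FPKM + 1), and 1.17 to 3.56 with 1 library left out. The log2 difference of the simple keratin sum, 0.038, ran from -0.42 to 0.50 with 1 library left out. With FPKM rescaled to the same sum in every library (TPM) it was 0.21. That of the type I to type II ratio, -0.33, was -1.81 without Krt19 and Krt8, the most abundant member of each type, and -0.62 to -0.050 with 1 library left out. Of single genes, direction turned for Krt8 (-0.15 to 0.40), Krt10 (-0.18 to 0.30), Krt15 (-0.75 to 2.74), Krt18 (-1.37 to 0.35), Krt23 (-1.14 to 0.041) and Krt80 (-0.61 to 0.044) with 1 library left out, and the cause was not tested. Replicate numbers are shared between groups, but the labels do not say that they pair libraries, and the deviations of libraries with the same number had a correlation of -0.061 over 13513 genes. With the replicate block the number of keratins at an unadjusted p under 0.05 was 5, as without it. Members below 1 FPKM rest on few counts, and a change in them was often not detectable at this depth.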
